A study of Homo sapiens with 5 samples.

Results

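The complement genes examined here were 8 in number, C1R, C1S, C3, CFB, CFI, CD46, CD55 and CD59, taken by gene symbol from the 46427 genes of the deposited expression table. All 8 were in the table and all 8 passed the filter on low counts. Total RNA of U87 MG, an established cell line grown from a human glioblastoma, was sequenced in 5 libraries. The CD133-positive group held 3 libraries of cells sorted from the line and labelled as cancer stem cells, with titles that begin with f2n11_csc. They are called sorted libraries 1, 2 and 3 here. The controls were 2 libraries of U87 MG with no treatment, numbered 2 and 3 in their titles. CD133, the membrane protein encoded by PROM1, is used as a marker of stem-like glioma cells. The labels do not say that libraries of a group came from separate cultures, so each p-value reflects only how far these samples vary, possibly for technical reasons. No mock-sorted or CD133-negative cells are among the samples, so an effect of the sort cannot be told apart from one of CD133. The code f2n11 is in the titles of all 3 sorted libraries and of neither control, and its meaning is not given. A condition that the code may stand for cannot be told apart from the sort or from CD133 either.

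Complement is a cascade of plasma and membrane proteins that marks cells for uptake and can perforate their membranes. In the classical pathway the proteases C1r and C1s, held on C1q, start the cascade, and C1s cleaves C4 and C2. In the alternative pathway C3b on a surface binds factor B, and both routes build convertases that split C3. Factor I inactivates C3b with the help of cofactors such as CD46, CD55 speeds the decay of the convertases, and CD59 blocks the membrane attack complex. Glioma cells are known to carry the membrane regulators and to make several of the soluble components themselves.

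Sorted library 3 stood apart from the other libraries. Protein-coding genes took 73.8%, 72.6% and 60.9% of the counts in sorted libraries 1 to 3, but 79.1% and 82.5% in controls 2 and 3. The cytoplasmic 7SL RNA genes took 10.9%, 12% and 24.4% of the counts in the sorted libraries, against 6.29% and 5.71% in the controls. The part of this difference in the results on complement genes was not tested. Depth was 17716823 to 27335199 counts in the sorted libraries and 29137978 and 29841238 counts in the controls. Levels are given in CPM, the counts-per-million of a library after scaling by trimmed-mean (TMM) factors. PROM1, the gene of the sort antigen, had 0.390, 0 and 0 CPM in the sorted libraries and 0.356 and 0 CPM in the controls, so the label was not checked by its transcript at this depth. Of the astrocyte and glioma markers, AQP4 was at 0 counts in all libraries, GFAP reached at most 0.908 CPM, and VIM was abundant. NES, of the same list, was 12.7 to 15.2 CPM in sorted libraries and 4.14 and 4.54 CPM in controls (edgeR adjusted p = 0.0253), and SLC1A3 was 33.8 to 39.3 CPM in sorted libraries and 41.9 and 48.9 CPM in controls (edgeR adjusted p = 0.332). Markers of T and B cells were at 0 throughout. Those of endothelium summed to 2.57 to 4.32 CPM in sorted libraries and 6.82 and 6.95 CPM in controls. TEK alone was 0.147 to 0.557 CPM in sorted libraries and 4.19 and 4.57 CPM in controls. The other endothelial markers did not share this difference. PECAM1 was 1.94 to 2.28 CPM in sorted libraries and 2.37 and 1.94 CPM in controls. CDH5 was 1.34, 1.76 and 0 CPM in sorted libraries and 0 and 0.301 CPM in controls. VWF overlapped between the groups, and CLDN5 was at 0. Markers of fibroblasts and pericytes summed to 444 to 628 CPM in sorted libraries and 200 and 236 CPM in controls, mostly from COL1A2. COL1A2 was higher (edgeR adjusted p = 0.0295), while LUM was lower (edgeR adjusted p = 0.0378). In bulk RNA, fewer cells of a type and less RNA per cell cannot be told apart.

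None of the 8 complement genes passed the test at an adjusted p under 0.05. CFB was 11.6, 11.8 and 69.3 CPM in the sorted libraries, against 3.83 and 2.93 CPM in the controls, which made it the gene with the widest difference. C3 and CD59 lay above both controls in every sorted library and CD46 lay below both, with fold changes of 1.5, 1.38 and 0.734 on that scale. C1R, C1S, CFI and CD55 overlapped between the groups. By edgeR's quasi-likelihood test with Benjamini-Hochberg adjustment, 0 of 8 were higher and 0 lower, where 4.61% of all 16304 tested genes were called. An unadjusted p under 0.05 was reached by 2 that were higher and 1 that was lower, and by 25.8% of all genes. DESeq2 called 3 of the 8 higher and 0 of them lower, while limma-voom called 0 in either direction, beside 16.9% and 9.14% of all genes. Their log2 fold changes had a median of 0.03, beside 0.00 over all tested genes. Of the 8, 3 had every sorted library above both controls and 1 had every sorted library below both. Of all tested genes 22.7% and 27.7% did so, 50.4% together.

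How many of these genes were called changed with the test and with sorted library 3. With that library left out, edgeR called C3, CD59 and CFB higher and CD46 lower. In that fit 15.4% and 16.8% of the 16038 genes tested were called in those directions, 32.2% in all. With sorted library 1 or 2 left out instead, edgeR called 0 of the 8, beside 0 and 19 genes of the whole table. DESeq2 on all 5 libraries called C3, CD59 and CFB higher, and 8.76% of all genes were higher and 8.16% lower by that test. With the replicate number as a block edgeR called 0 of the 8, beside 2.52% of all genes. Scaling by library size alone moved the median of all genes to -0.40 in log2 fold change. On log2(TPM + 1), where TPM is the transcripts-per-million value and corrects for length, that median was -0.64. On the TPM scale the fold changes of C3, CD59 and CFI were negative, and with library size alone that of CFI was negative too. CFB kept a positive fold change and C1R, C1S and CD46 a negative one under all 17 alternatives.

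**Figure D1:**
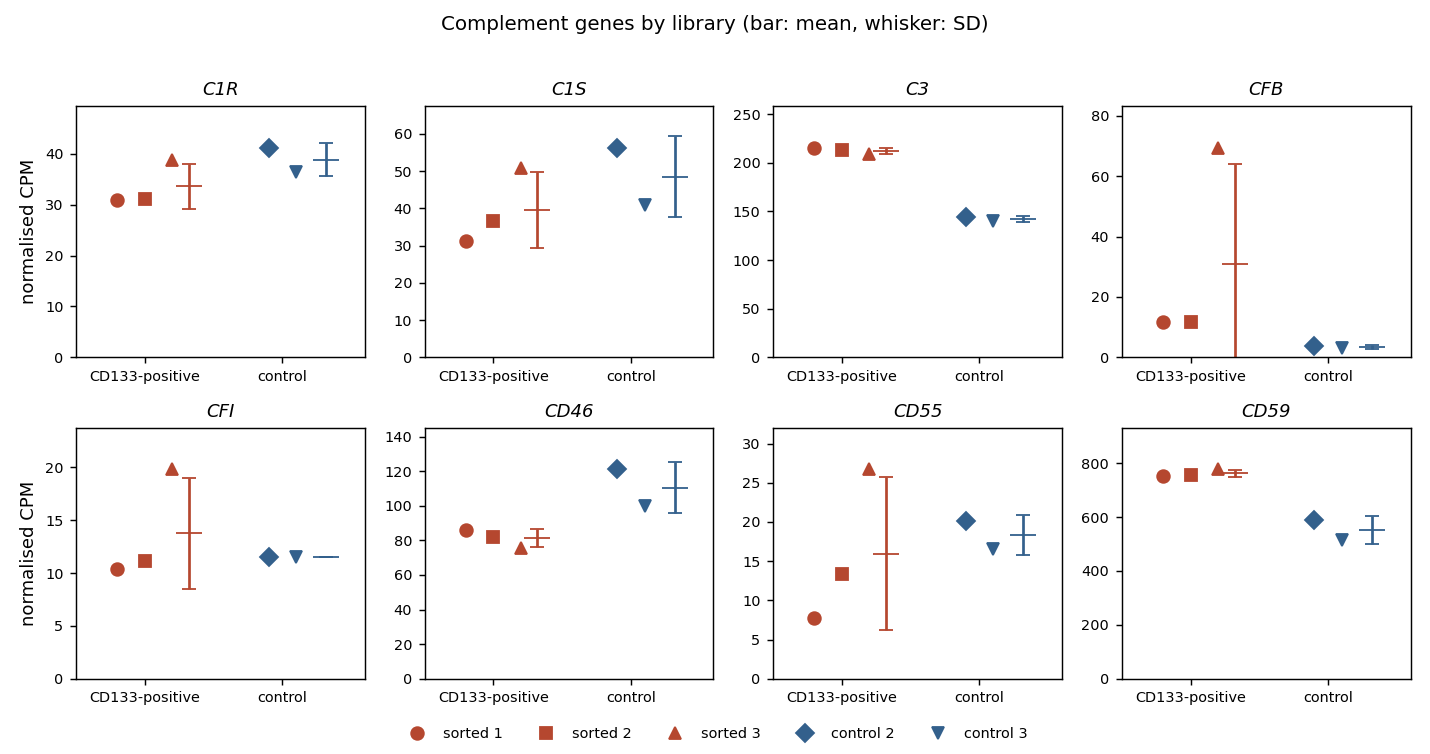
Normalised CPM of each complement gene (y axis, from 0, with its own range per panel) in the 3 CD133-positive and 2 control libraries (x axis); symbols are libraries, bars are means and whiskers are SD. C3 lies at 209 to 215 CPM in sorted libraries against 140 and 144 CPM in controls, and CFB stands at 69.3 CPM in sorted library 3, where the lower whisker would pass 0 and stops at the axis.

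Promoter sequences are shown for the 3 genes whose groups did not overlap and that have an entry in the RefSeq promoter table of GRCh38.p14, namely CFB, CD46 and CD59. The table held 11 entries for 6 of the 8 genes, with C1S and C3 the others. Each runs from 250 bases before to 50 bases after a start site, and capitals mark matches to the motifs searched. For CFB the window was chr6:31945845-31946144 on the plus strand, for CD46 chr1:207751788-207752087 on the plus strand, and for CD59 chr11:33736430-33736729 on the minus strand.
CFB: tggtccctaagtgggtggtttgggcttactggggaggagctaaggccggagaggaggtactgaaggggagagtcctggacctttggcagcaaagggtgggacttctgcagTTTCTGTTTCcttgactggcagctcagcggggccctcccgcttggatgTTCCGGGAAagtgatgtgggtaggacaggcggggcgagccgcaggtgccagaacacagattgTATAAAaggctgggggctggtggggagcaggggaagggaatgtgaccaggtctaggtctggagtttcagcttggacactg
CD46: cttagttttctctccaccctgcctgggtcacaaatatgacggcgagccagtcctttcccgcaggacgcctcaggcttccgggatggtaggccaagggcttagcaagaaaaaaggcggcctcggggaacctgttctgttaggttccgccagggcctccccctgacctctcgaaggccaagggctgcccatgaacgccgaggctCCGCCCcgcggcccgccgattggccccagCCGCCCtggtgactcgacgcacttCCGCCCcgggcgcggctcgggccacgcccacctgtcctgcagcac
CD59: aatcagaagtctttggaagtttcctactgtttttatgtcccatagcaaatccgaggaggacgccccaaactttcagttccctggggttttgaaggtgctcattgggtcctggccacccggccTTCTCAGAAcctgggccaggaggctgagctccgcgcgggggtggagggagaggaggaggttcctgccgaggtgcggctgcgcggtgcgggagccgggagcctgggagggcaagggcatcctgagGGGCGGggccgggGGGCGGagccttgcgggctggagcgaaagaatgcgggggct

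The motifs were searched on both strands. They were TATAAA, the SP1 motif GGGCGG, the STAT motif TTCNNNGAA, the AP-1 motif TGANTCA, the interferon response motif and the NF-kB motif. None of them overlapped another match in the windows shown. The CFB window held TATAAA at position -30, TTCCGGGAA at -92 and the reverse form of the interferon motif, TTTCTGTTTC, at -140, counted from the start site. Of all 35116 promoters in the table, 11.5% held TATAAA, 7.66% the STAT motif and 3.57% the interferon motif. The CD46 window held GGGCGG in its reverse form at -48, -19 and 6, and the CD59 window held it at -4 and 10, with a STAT match, TTCTCAGAA, at -128. GGGCGG was present in 45.0% of all promoters. The CFI window and the first of the C1R windows held no match to any of the 6 motifs, the second C1R window held TTCCTGGAA, and the CD55 window held GGGCGG in its reverse form at -46. The NF-kB motif was found in none of the 11 windows of these genes. The AP-1 motif was found in a further CD59 window that starts at 33722678, where it occurred at -117, -23 and 4. Among all promoters 7.71% held the AP-1 motif and 1.4% the NF-kB motif. A match is a run of letters in a window and was not measured as a binding site.

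C1R and C1S encode the proteases of the C1 complex, and they lie side by side on chromosome 12 with 9186 bases between them (C1R, 7080219 to 7092445; C1S, 7060718 to 7071032; GRCh38.p14). C1R stood at 30.9, 31.2 and 38.7 CPM in the sorted libraries, numbered 1 to 3, against 41.1 and 36.5 CPM in controls 2 and 3. Sorted libraries 1 and 2 lay below both controls, and sorted library 3 lay between them. Its log2 fold change was -0.21 ± 0.20 (SE; edgeR adjusted p = 0.566). C1S was 31.2, 36.6 and 50.9 CPM in the sorted libraries, against 56.2 and 40.9 CPM in the controls. The groups overlapped through sorted library 3 again, and the log2 fold change of C1S was -0.29 ± 0.28 (SE; edgeR adjusted p = 0.555). Without sorted library 3 the log2 fold changes of C1R and C1S were -0.32 ± 0.13 and -0.51 ± 0.17 (SE), with edgeR adjusted p of 0.0940 and 0.0551. The ratio of C1R to C1S in TPM, which no scaling factor moves, was 1.09, 0.945 and 0.843 in the sorted libraries and 0.809 and 0.986 in the controls, so the values of the groups interleaved. The C1q chain genes C1QA, C1QB and C1QC had 0 counts in every library, a result that leaves room for up to 0.227 CPM.

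C3 encodes the protein on which all routes of the cascade converge (chromosome 19, 6677704 to 6720650). It was 215, 213 and 209 CPM in the sorted libraries, against 144 and 140 CPM in the controls. All 3 sorted libraries were higher than both controls, and the values inside each group differed by 1.02-fold in sorted cells and 1.03-fold in controls. The mean was 213 ± 2.69 CPM in sorted cells (SD, n = 3) and 142 ± 2.74 CPM in controls (SD, n = 2). The log2 fold change was 0.58 ± 0.17 (SE). Its adjusted p was 0.0992 by edgeR, 0.00575 by DESeq2 and 0.00205 by edgeR without sorted library 3. The edgeR adjusted p of C3 was 0.185 and 0.18 without sorted library 1 or 2. On the deposited TPM scale C3 was 42.9, 40.9 and 18.8 in the sorted libraries, against 40.1 and 43.2 in the controls, and the groups overlapped. With library size alone its log2 fold change was 0.19. The 197 tested genes within 5 Mb on either side of C3 had log2 fold changes with a median of 0.31. Over all tested genes of chromosome 19 the median was 0.24.

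CFB encodes factor B, the protease subunit of the alternative pathway convertase (chromosome 6, 31946095 to 31952084, in the major histocompatibility region). The sorted libraries held 208, 321 and 916 counts of CFB, against 129 and 107 in the controls. Sorted libraries 1 and 2 were nearly equal at 11.6 and 11.8 CPM, and sorted library 3, at 69.3 CPM, was 5.93-fold above their mean. The control mean was 3.38 ± 0.635 CPM (SD, n = 2). The log2 fold change was 3.18 ± 0.95 (SE), a value at the 98th percentile of all tested genes, and its adjusted p was 0.107 by edgeR's quasi-likelihood test. Without sorted library 3 it was 1.79 ± 0.23 (SE), a 3.46-fold difference with an edgeR adjusted p of 0.00119. It was 3.56 and 3.58 without sorted library 1 or 2, with edgeR adjusted p of 0.129 and 0.123. In TPM, too, CFB was higher in every sorted library, at 4.89, 4.75 and 13.1 TPM against 2.25 and 1.90 TPM in the controls. It was the 1 gene of the 8 with all sorted libraries above both controls on both scales. C2, the classical pathway counterpart of factor B, ends 422 bases before CFB starts, and it was 0.334, 0.806 and 0.756 CPM in the sorted libraries and 0.594 and 0.520 CPM in the controls. Its log2 fold change was 0.18 ± 0.83 (SE; edgeR adjusted p = 0.920). NELFE, a transcription elongation factor gene that begins just after the other end of CFB, had a log2 fold change of -0.21 (edgeR adjusted p = 0.726). Of 216 tested genes within 5 Mb on either side of CFB, 12 were higher and 2 lower by edgeR, beside 2.2% and 2.4% of all tested genes. The median log2 fold change of the 216 was 0.28, and that of all tested genes on chromosome 6 was 0.03. Around the other members such medians ran from -0.28 for CFI to 0.31 for C3.

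CFI encodes factor I, the protease that inactivates C3b (chromosome 4, 109730982 to 109801999). It was 10.4, 11.1 and 19.8 CPM in the sorted libraries, and 11.5 CPM in both controls. Sorted libraries 1 and 2 lay just below the controls and sorted library 3 above them. The log2 fold change was 0.26 ± 0.34 (SE; edgeR adjusted p = 0.693), and it was -0.09 ± 0.18 without sorted library 3. The ratio of CFI to CFB in TPM was 1.14, 1.18 and 0.360 in the sorted libraries, against 3.79 and 4.99 in the controls. The ratio of CFB to C3 in TPM was 0.114, 0.116 and 0.698 in the sorted libraries, against 0.0562 and 0.0440 in the controls. Both ratios separated the groups, each with p = 0.2 by an exact permutation test (two-sided). That is the smallest p that 3 against 2 libraries allow, and the adjusted p was 0.4 over the 6 ratios computed. Both ratios hold CFB, which by itself was higher in every sorted library in TPM, so neither adds a separate result. For all gene pairs, the share of ratios that separate the groups was not computed. CFI over C3, at 0.130, 0.138 and 0.251 in the sorted libraries and 0.213 and 0.220 in the controls, overlapped between the groups.

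**Figure D2:**
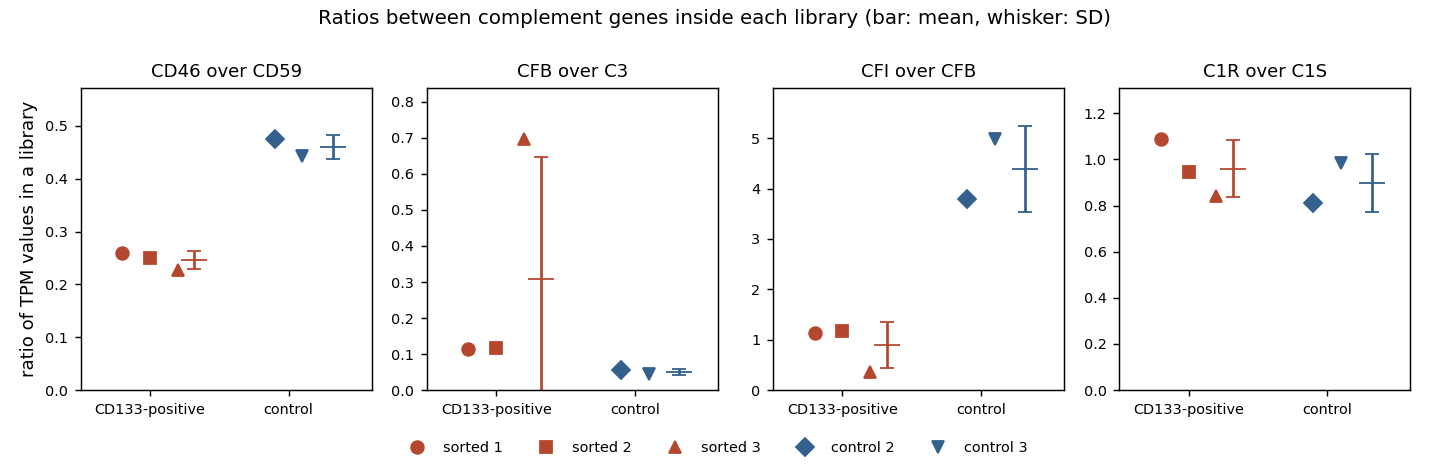
Ratio of the TPM values of 2 complement genes inside each library (y axis, from 0) for the 3 CD133-positive and 2 control libraries (x axis); symbols are libraries, bars are means and whiskers are SD. CD46 over CD59 lies at 0.227 to 0.260 in sorted libraries against 0.444 and 0.476 in controls, and C1R over C1S interleaves.

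The membrane regulators differed from one another. CD59, the lipid-anchored inhibitor of the membrane attack complex (chromosome 11, 33703010 to 33736479), was 753, 757 and 777 CPM in the sorted libraries, against 588 and 515 CPM in the controls. Every sorted library was above both controls, with a log2 fold change of 0.47 ± 0.20 (SE). Its adjusted p was 0.209 by edgeR's quasi-likelihood test, 0.0496 by DESeq2 and 0.00656 by edgeR without sorted library 3. The edgeR adjusted p of CD59 was 0.319 and 0.32 without sorted library 1 or 2. On the TPM scale the order was turned round, with 104, 100 and 48.1 TPM in the sorted libraries and 113 and 110 TPM in the controls. CD59 overlaps the gene C11orf91 by 3541 bases, and C11orf91 had 11 to 61 counts in the sorted libraries and 63 and 89 in the controls, against 10279 or more for CD59.

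CD46, the cofactor of factor I on the cell surface (chromosome 1, 207752038 to 207795516), was 86.2, 81.9 and 75.7 CPM in the sorted libraries, against 121 and 100 CPM in the controls. All sorted libraries were lower than both controls, with a log2 fold change of -0.45 ± 0.18 (SE). The adjusted p was 0.184 by edgeR's quasi-likelihood test, 0.151 by DESeq2 and 0.0377 by edgeR without sorted library 3. By edgeR it was 0.246 and 0.291 without sorted library 1 or 2. CD46 was also lower on the TPM scale, at 27.1, 25.0 and 10.9 TPM in the sorted libraries against 53.8 and 48.6 TPM in the controls. The ratio of CD46 to CD59 in TPM was 0.246 ± 0.0169 in sorted cells (SD, n = 3) and 0.460 ± 0.0231 in controls (SD, n = 2). The mean ratio in sorted cells was 0.535 times that in controls. The groups did not overlap (p = 0.2 by the exact permutation test, adjusted p = 0.4). In CPM, CD46 alone was lower and CD59 alone higher in every sorted library, so this ratio restates those differences. Sorted library 3 lay near the other sorted libraries in this ratio, at 0.227 beside 0.260 and 0.250.

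CD55, the factor that speeds convertase decay (chromosome 1, 207321678 to 207360966), varied most among the regulators. It was 7.80, 13.4 and 26.7 CPM in the sorted libraries, against 20.1 and 16.5 CPM in the controls. Sorted libraries 1 and 2 were lower than both controls and sorted library 3 was higher, a 3.42-fold range inside the sorted group. The log2 fold change was -0.20 ± 0.50 (SE; edgeR adjusted p = 0.850). It was -0.77 ± 0.26 (SE) without sorted library 3, with an edgeR adjusted p of 0.0568. Without sorted library 1 it was 0.12, so its direction changed with the libraries present. The ratio of CD55 to CD59 in TPM was 0.0296, 0.0514 and 0.103 in the sorted libraries, against 0.1 and 0.0940 in the controls, and overlapped between the groups.

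**Figure D3:**
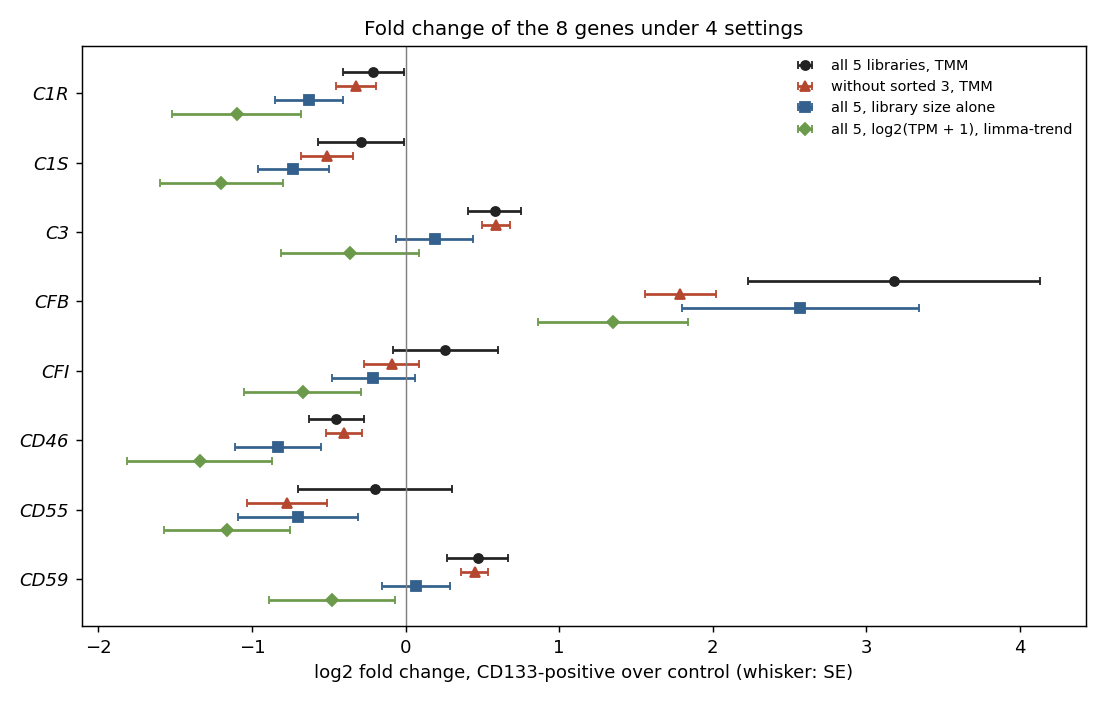
Log2 fold change of CD133-positive over control libraries (x axis) with its SE (whiskers) for the 8 complement genes (y axis) under 4 settings, namely all libraries with TMM factors, without sorted library 3, with library size alone, and log2(TPM + 1). CFB is right of 0 in all 4 settings, C1R, C1S, CD46 and CD55 are left of 0 in all 4, and C3, CD59 and CFI cross it.

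Levels of different genes were compared per length, in TPM. CD59 was the most abundant of the 8 in every library, with 41.2 to 49.0% of their summed TPM in sorted libraries and 39.9 and 40.5% in controls. C3 came next in the sorted libraries, with 20.2%, 19.7% and 16.1% of the sum, against 14.2% and 15.9% in the controls. CD46 followed C3 in sorted libraries 1 and 2, stood below CFB in sorted library 3, and was the second most abundant in both controls, at 12.8%, 12.1% and 9.38% of the sum in the sorted libraries against 19.0% and 18.0%. C1R and C1S followed next to each other in all 5 libraries, and their levels of 10.9 ± 3.15 and 11.3 ± 2.36 TPM in sorted cells (SD, n = 3) did not differ beyond their spread. CFI, CD55 and CFB were the lowest in both controls and in sorted libraries 1 and 2. In sorted cells CFI averaged 5.31 ± 0.510 TPM, CD55 4.39 ± 1.14 TPM and CFB 7.59 ± 4.80 TPM (SD, n = 3), which overlapped. CFB was last in both controls, at 0.797% and 0.702% of the sum. In sorted libraries 1, 2 and 3 it held 2.30%, 2.29% and 11.3% of the sum, and in sorted library 3 only CD59 and C3 were above it. Between groups, 6 of the 8 genes (C1R, C1S, CFI, CD46, CD55 and CD59) lay below both controls in every sorted library in TPM, where 63.2% of all tested genes did so. CFB lay above both, as 4.1% of all tested genes did.

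The 8 genes varied in different ways over the 5 libraries. Likeness was taken as the root-mean-square difference of mean-centred log2(CPM + 1) values, among 13013 tested protein-coding genes. The rule named like genes only for members past the threshold, of which there were 0, so the genes given here were chosen after their values were seen. C3 and CD59 were the most alike of the members, with a difference of 0.0772, which placed CD59 at rank 58 of 13012 genes from C3. C1R and its neighbour C1S had a difference of 0.154, which put C1R at rank 94 from C1S and C1S at rank 774 from C1R. CFB had its nearest genes at 0.238 to 0.262, namely TWIST1, TXNIP and HSD11B1. TWIST1, a transcription factor gene of mesenchymal development, was 33.8, 25.7 and 152 CPM in the sorted libraries, against 9.26 and 11.4 CPM in the controls. TXNIP, which encodes a thioredoxin-binding protein, was 937, 649 and 3840 CPM in the sorted libraries and 342 and 308 CPM in the controls. Like CFB, both were highest in sorted library 3.

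The genes beside the complement genes on the chromosome gave no calls by edgeR with all 5 libraries. Of 27 protein-coding neighbours, up to 2 on either side of each gene, 18 were tested, and 0 were higher and 0 lower, beside 4.61% of all tested genes called. At an unadjusted p under 0.05, 2 were higher and 2 lower, beside 25.8% of all tested genes in either direction. DESeq2 called GPR108 higher and CASP6 and TNFSF14 lower, while limma-voom called TNFSF14 lower, beside 16.9% and 9.14% of all genes. Without sorted library 3 edgeR called 4 higher and 3 lower, beside 32.2% of all genes. CD46 and CD55 lie 391 kb apart in the cluster of complement regulator genes on chromosome 1, and C4BPA, C4BPB, CR1 and CR2 from the same cluster had 0 counts in all libraries. C1RL, the C1r-like protease gene 2108 bases beyond C1R, was 20.7, 18.8 and 21.0 CPM in the sorted libraries, against 11.5 and 17.4 CPM in the controls. Its log2 fold change was 0.48 ± 0.25 (SE; edgeR adjusted p = 0.296), opposite in sign to those of C1R and C1S, though on log2(TPM + 1) it was -0.32.

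Of 50 further complement genes, 28 had 0 counts in all 5 libraries and 13 were tested. By edgeR's quasi-likelihood test 1 was higher and 0 lower, beside 2.2% and 2.4% of all tested genes. At an unadjusted p under 0.05, 4 were higher and 2 lower, beside 25.8% of all tested genes in either direction. DESeq2 called CLU, ITGAM and ITGAX higher and 1 lower, and limma-voom called 1 higher and 0 lower, beside 16.9% and 9.14% of all genes. The median log2 fold change of the 13 was 0.18, beside 0.00 over all tested genes. Genes at 0 in all libraries included MASP1 and MASP2 of the lectin pathway, CFD, the protease that cleaves factor B, C7 and the C8 chains of the membrane attack complex, and the inhibitor gene VTN. C4A and C4B, near-identical copies whose counts could be split between them, had 9 and 10 counts over all libraries, and SERPING1, the inhibitor of C1r and C1s, had 6.

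ITGAX, which encodes the alpha chain of complement receptor 4, was the gene that passed (chromosome 16, 31355176 to 31382999). It rose to 33.3, 33.6 and 39.3 CPM in the sorted libraries, against 2.76 and 2.57 CPM in the controls. The log2 fold change of ITGAX was 3.73 ± 0.24 (SE; edgeR adjusted p = 0.00741). The call was lost without sorted library 1, control 2 or control 3, with edgeR adjusted p of 0.0588, 0.120 and 0.159. In those fits edgeR called 0 genes of the whole table, and 3741, 1789 and 1753 had an unadjusted p under 0.05. ITGAX is also known as a marker of dendritic cells and macrophages. Of 10 microglia and macrophage markers, AIF1, TYROBP and CX3CR1 were at 0 in all libraries and PTPRC reached at most 0.227 CPM. CSF1R, of the same list, was 6.63, 7.8 and 0 CPM in the sorted libraries and 6.5 and 3.09 CPM in the controls. CD14 was 0.167, 0.733 and 0 CPM in the sorted libraries and 0 and 0.383 CPM in the controls. The summed level of the 10 was 242 to 282 CPM in sorted libraries and 104 and 147 CPM in controls. Nearly all of it came from CD68, a lysosomal protein gene. CD68 was the 1 gene of this list that edgeR called. Its log2 fold change was 1.11 ± 0.22 (SE; edgeR adjusted p = 0.0479), and in TPM its groups overlapped.

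Of the abundant genes that did not pass, CLU, which encodes the fluid-phase inhibitor clusterin, was 228, 278 and 207 CPM in the sorted libraries, against 142 and 151 CPM in the controls. All sorted libraries were higher, with a log2 fold change of 0.70 ± 0.21 (SE; edgeR adjusted p = 0.103), which was -0.27 on log2(TPM + 1). C1QBP, a mitochondrial protein gene named for binding C1q, and C5, the precursor of the membrane attack complex, had log2 fold changes of 0.18 and -0.46 (edgeR adjusted p = 0.753 and 0.539), and that of C1QBP was -0.28 with library size alone. C3AR1, the receptor for the fragment C3a, had one of -0.54 (edgeR adjusted p = 0.626).

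**Figure D4:**
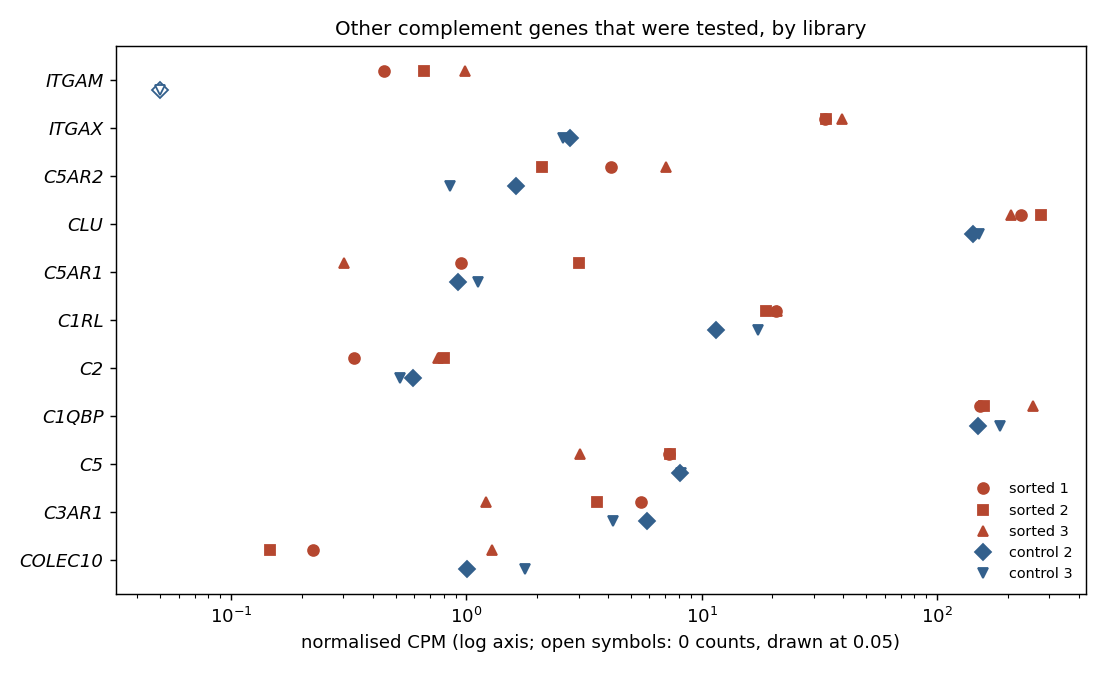
Normalised CPM (x axis, log scale, with 0 counts drawn as open symbols at 0.05) of 11 other complement genes that were tested (y axis, ordered by log2 fold change) in each library; for each gene the CD133-positive libraries are drawn above the controls. ITGAX lies at 33.3 to 39.3 CPM in sorted libraries against 2.57 and 2.76 CPM in controls.

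Cytokines and transcription factors known to induce complement genes in other cells made up a list of 19 genes. Of these 13 were tested, and edgeR called 0 higher and 1 lower, beside 2.2% and 2.4% of all tested genes. At an unadjusted p under 0.05, 3 were higher and 2 lower, beside 25.8% of all tested genes in either direction. DESeq2 and limma-voom both called CEBPD and IL6 higher, and 2 lower with IL1B among them, beside 16.9% and 9.14% of all genes. The median log2 fold change of the 13 was 0.22, beside 0.00 over all tested genes. IL1B, which encodes the inflammatory cytokine interleukin 1 beta, fell to 169, 93.4 and 135 CPM in the sorted libraries, against 663 and 496 CPM in the controls, a log2 fold change of -2.13 ± 0.30 (SE; edgeR adjusted p = 0.0251). The edgeR adjusted p of IL1B was 0.0724 and 0.0741 without sorted library 1 or 2, so no call remained there. Those fits called 0 and 19 genes of the whole table. The adjusted p of IL1B was 0.0261 by edgeR without sorted library 3 and 6.46e-09 by DESeq2 on all 5 libraries. Without control 2 or control 3 its log2 fold change was -1.92 and -2.34, and its call was lost. IL6, which encodes the acute-phase cytokine interleukin 6, was 94.2, 56.9 and 88.2 CPM in the sorted libraries, against 33.8 and 39.5 CPM in the controls, with a log2 fold change of 1.12 ± 0.27 (SE; edgeR adjusted p = 0.0715). That fold change was 0.70 with library size alone and 0.21 on log2(TPM + 1), and in TPM the groups overlapped. AHR and CEBPB, both transcription factor genes, had log2 fold changes of 0.74 and 0.65 (edgeR adjusted p = 0.227 and 0.290). Their CPM, like that of CFB, was highest in sorted library 3. In TPM, AHR and CEBPB were lowest of all 5 libraries in sorted library 3, at 39.3 and 24, where CFB was highest. On log2(TPM + 1) the fold changes of AHR and CEBPB were -0.28 and -0.38. IFNG, IFNB1, CEBPA and NR1H4 had 0 counts in all libraries. Markers of hepatocytes, the main source of plasma complement, summed to at most 0.756 CPM in sorted libraries and 0.416 CPM in controls.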

How the data were processed

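Per the labels' protocols, RNA of U87 MG was taken up in TRIzol, cleaned on RNeasy Micro columns and turned into stranded libraries of total RNA. The submitters' processing notes name StringTie and GRCh38 but no version or role. The aligner and the strand setting were not given in the sources used. Genes that overlap or have near-identical copies could therefore share counts.

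The authors deposited an estimated count per gene as whole numbers, with FPKM and TPM computed by the authors, per the file headers. Of 46427 genes, 96.3% matched the RefSeq table of GRCh38.p14, which gave coordinates and promoters. The members and lists were chosen with earlier results of these data known. The counts needed no rounding.

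Counts were filtered with filterByExpr (16304 genes kept), scaled with TMM factors and tested by the robust quasi-likelihood F test of edgeR 4.0.16 in R 4.3.3, with group as the only term and adjustment over all tested genes at a threshold of 0.05. SE was computed as the size of the log2 fold change over the square root of F. Printed CPM were scaled by TMM. For 0 counts the upper limit was set at 3 counts, or 0.0822 to 0.227 CPM, which covers counting error only. Library pairs differed by a chi-square of at least 21.3 per gene, so no pair differed by counting error alone. This does not show that they came from separate cultures. Ratios of TPM were compared by exact permutation tests over libraries. Alternatives, 17 in all, were other scalings (RLE, upper quartile, library size alone) and filters, DESeq2 1.42.0, limma-voom (limma 3.58.1), limma-trend on TPM and FPKM, protein-coding genes alone, a replicate block and each library left out in turn. The tests were tested on simulated data.

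Named were all 8 members. Of the 50 other complement genes and 19 inducers, those past the threshold and the 6 and 3 most abundant others were named. Any other gene was picked with its values in view. Protein sequences were not used here, and the values of some genes on these lists are not reported here.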

Additional observations from a re-analysis of the deposited data

How the results depend on the processing

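Of 136 recomputed fold changes of the 8 complement genes, 118 kept their sign and their side of the threshold, 7 passed it with the same sign and 11 had the other sign; for no reversal was the cause tested. The other sign appeared for C3 at -0.36 and -0.37 on log2(TPM + 1) and log2(TPM + 0.1), and for CD59 at -0.48 and -0.49. For CFI it appeared at -0.21 with library size alone, -0.67 and -0.75 on the TPM scales and -0.19 on log2(FPKM + 1). The median of all genes was -0.94 on log2(TPM + 0.1) and -0.26 on log2(FPKM + 1). With 1 library left out, CFI ran from -0.09 to 0.41 and CD55 from -0.77 to 0.12. Of the other genes named, also run under these alternatives after the data had been seen, the sign turned for C1QBP at -0.28 with library size alone, -0.81 and -0.82 on the TPM scales, -0.27 on log2(FPKM + 1) and -0.10 to 0.33 with 1 library left out, the lowest without sorted library 3. On log2(TPM + 1) and log2(TPM + 0.1) it turned for CLU at -0.27 and -0.27, C1RL at -0.32 and -0.37, AHR at -0.28 and -0.28, and CEBPB at -0.38 and -0.39.

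Of the complement genes, DESeq2 called 3 higher, and with 1 library left out edgeR called 0 to 3 higher and 0 to 1 lower, the 3 and 1 without sorted library 3. Of the other complement genes DESeq2 called 3 higher and 1 lower. On log2(TPM + 1), log2(TPM + 0.1) and log2(FPKM + 1), 3, 1 and 1 of these were lower. With 1 library left out, 0 to 3 were higher and 0 to 3 lower. Of all genes, 359 higher and 392 lower became 113 higher with library size alone, 1429 and 1331 with DESeq2, and 617 and 873 with limma-voom. They became 94 and 1500 on log2(TPM + 1), 47 higher on log2(TPM + 0.1), and 192 and 895 on log2(FPKM + 1). With 1 library left out they ran from 0 to 2477 higher and 0 to 2695 lower. The share of calls that were higher was 47.8% with TMM factors, 26.5% with library size alone and 5.9% on log2(TPM + 1).

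Replicate numbers 2 and 3 occur in both groups, but the labels do not say that they mark a shared culture. Deviations of same-numbered libraries correlated across genes at 0.07 and 0.10. The 2 controls deviate from their own mean by equal and opposite amounts. These correlations are therefore not independent and cannot decide whether the libraries were paired. With a replicate block, 192 genes were higher and 219 lower, 0 of the 8 complement genes were called, CFB had 3.09 (edgeR adjusted p = 0.0620) and CD55 had 0.06. Depth limited the 8 genes little, the lowest count being 107 for CFB in control 3.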

Other observations

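ITGAM and C5AR2 were named by no rule and were picked with their values in view. ITGAM, the alpha chain gene of complement receptor 3, had 8, 18 and 13 counts in sorted libraries 1, 2 and 3, and 0 and 0 in the controls (edgeR adjusted p = 0.0756). C5AR2, the second receptor for the fragment C5a, was 4.12, 2.09 and 7.03 CPM in the sorted libraries, against 1.63 and 0.849 CPM in the controls, with a log2 fold change of 1.82 ± 0.64 (SE; edgeR adjusted p = 0.146).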
